A study of Homo sapiens with 6 samples.

Results

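HCC1954 is an established breast cancer cell line known for amplification of *ERBB2*, the gene of the HER2 receptor tyrosine kinase. Its chromatin folding was compared with that of 3 other established cancer lines, SW480 and SNU-C1 from colon cancer and OE33 from esophageal adenocarcinoma. All were assayed by in situ Hi-C, which ligates and sequences DNA ends that lie close together in the nucleus, and no treatment is named for any of them. The pairs described are those of different 40-kb bins (hg19) within chromosomes 1 to 22 of the HCC1954 map, 20110961 of 127644757 such pairs in 6 maps. The SW480 map held 27596738, that of SNU-C1 21920585 and that of OE33 22898230. Pairs between chromosomes were taken up as well, without SW480, whose map holds almost none. HCC1954, SNU-C1 and OE33 have 1 map each, so no difference between the lines could be tested. SW480 also has maps of replicates 1 and 2, which together hold 99.97% of the read pairs of the SW480 map used, and their difference is given as the spread between libraries of 1 line. The methods state that the assay was done in duplicate, and whether each of the other maps pools its duplicates is not stated.

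The deposited values are contact frequencies after iterative correction, which scales every bin to the same total. The number of read pairs behind each value was recovered from them and came to 89618230 within autosomes for HCC1954, 128431944 for SW480, 111654971 for SNU-C1 and 87123995 for OE33. A usable bin of HCC1954 held a median of 2534 read-pair ends, with a counting error of up to 3.97%, and 62198 of 72036 autosomal bins were usable in all 4 lines. Intervals given with read pairs are exact 95% Poisson intervals and cover counting error only.

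Chromosomes fold at several scales. Neighbouring stretches form topologically associating domains (TADs), separated by boundaries that contacts cross less often. Over longer distances, active gene-rich chromatin (compartment A) and inactive gene-poor chromatin (compartment B) keep to their own kind. In cancer genomes a rearrangement brings distant DNA onto the same molecule, which a Hi-C map shows as strong contact between positions that are far apart on the reference, and an amplified segment gives more read pairs.

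The share of distant contacts in HCC1954 lay within the range of the other lines, while its curve against distance left that range in places. Pairs at least 20 Mb apart made up 9.17% of its read pairs, against 7.85% in SNU-C1, 10.5% in SW480 and 13.4% in OE33. The SW480 replicates had 10.4% and 10.5%, so the distances between lines exceed the spread between those libraries. At 40 to 200 kb the share was 33.3% in HCC1954, 31.5% in SW480, 35.8% in SNU-C1 and 32.0% in OE33. Relative to the sum over distances under 1 Mb, the mean contact frequency of HCC1954 was below all other lines at the distances examined from 0.08 to 0.32 Mb and above all of them from 0.52 to 2.68 Mb. At 0.08 Mb it was 0.114 in HCC1954, 0.119 in SW480, 0.120 in SNU-C1 and 0.121 in OE33. The slope of log contact frequency on log distance between 0.4 and 4 Mb was -1.33 in HCC1954, and -1.32, -1.46 and -1.33 in SW480, SNU-C1 and OE33. Between 4 and 40 Mb it was -0.91 in HCC1954, -0.92 in SW480, -0.92 in SNU-C1 and -0.73 in OE33.

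Single chromosomes departed from this order. HCC1954 had the highest share of pairs at least 20 Mb apart on 2 of 22 chromosomes, 13 and 21, and the lowest on 5, namely 9, 18, 19, 20 and 22. On chromosome 21 the share was 2.45%, with 0.851% in SW480, 0.587% in SNU-C1 and 1.13% in OE33. The SW480 replicates had 0.846% and 0.854% there, and over all chromosomes they differed by at most 0.119 percentage points. Chromosome 21 of HCC1954 therefore stood apart from the 3 other lines by more than the libraries of SW480 did from each other. On chromosome 13 the margin was small, 8.59% against 8.30% in SW480.

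Coverage of a bin is its recovered read pairs within the chromosome relative to the autosomal median of that map. It rises with the number of DNA copies and with the share of a bin's ligations that fall within its chromosome. Of 39 chromosome arms, 7 had at least 1.2 times the median coverage of the other 3 lines (17.9%) and 10 had at most 0.8 times (25.6%). By the same rule SW480 had 10 higher and 5 lower arms, SNU-C1 had 7 and 5, and OE33 had 9 and 7. With pairs between chromosomes counted too, in HCC1954, SNU-C1 and OE33 only, HCC1954 had 8 higher and 13 lower arms. The SW480 replicates differed by at most 2.65% on any arm. The higher arms of HCC1954 were 9p, 8q, 4q, 6p, 1q, 18p and 16q, and all but 8q and 18p lay above each other line.

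**Figure D1:**
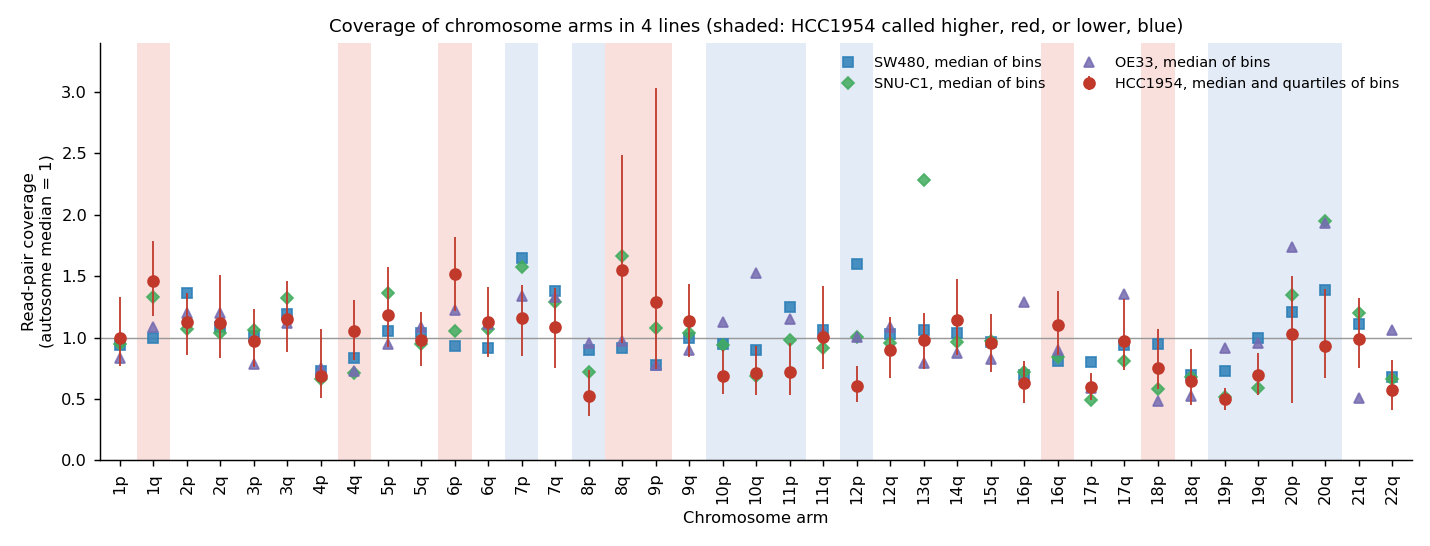
Coverage of each chromosome arm relative to the autosomal median of the map, as the median over usable bins in each line, with vertical lines for the quartiles over the bins of HCC1954 and shading on arms called higher (red) or lower (blue) in it. HCC1954 lies above all other lines on 9 arms and below all on 12 of the 39, with 20q at 0.929 while the other lines are at 1.39 to 1.95.

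Arm 9p was the most raised arm. Its coverage was 1.29 in HCC1954, 0.780 in SW480, 1.08 in SNU-C1 and 0.777 in OE33, or 1.65 times the median of the others. The arm was uneven, with quartiles of 0.748 and 3.03 over its bins, so that the arm value mixes stretches below and far above the autosomal median. Arm 8q had 1.55 in HCC1954, 0.912 in SW480, 1.66 in SNU-C1 and 0.971 in OE33, so SNU-C1 had a value close to that of HCC1954. Arm 1q, often gained in breast cancer, had 1.46 in HCC1954 and 0.996, 1.33 and 1.08 in SW480, SNU-C1 and OE33.

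The lower arms of HCC1954 were 20q, 8p, 12p, 11p, 19p, 10p, 19q, 7p, 20p and 10q, and all but 19q and 10q lay below each other line. Coverage of 20q was 0.929 in HCC1954, while it was 1.39 in SW480, 1.95 in SNU-C1 and 1.93 in OE33. The difference on 20q, 0.481 times the median of the others, thus comes with raised values in all 3 gastrointestinal lines and a value near the autosomal median in HCC1954. On 8p, HCC1954 itself was low, at 0.522 with 0.902, 0.718 and 0.957 in SW480, SNU-C1 and OE33. On 12p it had 0.605, against 1.60 in SW480 and 1.01 in both SNU-C1 and OE33.

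At the scale of bins, 335 of 62198 had at least 4 times the median coverage of the other lines (0.539%), in 22 runs, and 155 had at least 4 times the coverage of the highest other line. With pairs between chromosomes counted too, in the 3 lines that have them, 408 bins passed. The same rule counted 36 bins in SW480, 39 in SNU-C1 and 191 in OE33. Chromosome 9 held 218 of the bins of HCC1954, chromosome 8 held 72, chromosome 12 held 25 and chromosome 17 held 13. Chromosomes 11 and 4 had 4 and 3, and the other chromosomes had none. Coverage of 0.5 times or less was found at 2268 bins, and 0.25 times or less at 54.

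The run with the highest ratio was the *ERBB2* segment, chr17:37640001-38160000. Over its 13 bins the median coverage was 45.0 in HCC1954, 0.960 in SW480, 0.839 in SNU-C1 and 13.7 in OE33. HCC1954 was thus far above the other lines, and OE33 was the only other line in which the segment was raised, with HCC1954 a median of 4.22 times the highest other line. The segment holds the end of *CDK12* (a kinase of transcription elongation) and *STARD3*, *ERBB2*, *GRB7* (an adaptor that binds receptor kinases) and *IKZF3* (a lymphoid transcription factor), among 17 protein-coding genes. At *GRB7*, coverage was 53.1 in HCC1954 and 14.1 in OE33. At *ERBB2*, coverage was 45.0 in HCC1954, 0.996 in SW480, 0.839 in SNU-C1 and 14.1 in OE33. The raised stretch was narrow. *RARA*, the retinoic acid receptor alpha gene, had 0.930 times the median of the other lines, and *TOP2A*, the topoisomerase gene that lies beyond it, had 1.07 times. At the start site of *CDK12* the value was 1.45 times, with 1.39 in HCC1954 and 4.45 in OE33.

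**Figure D2:**
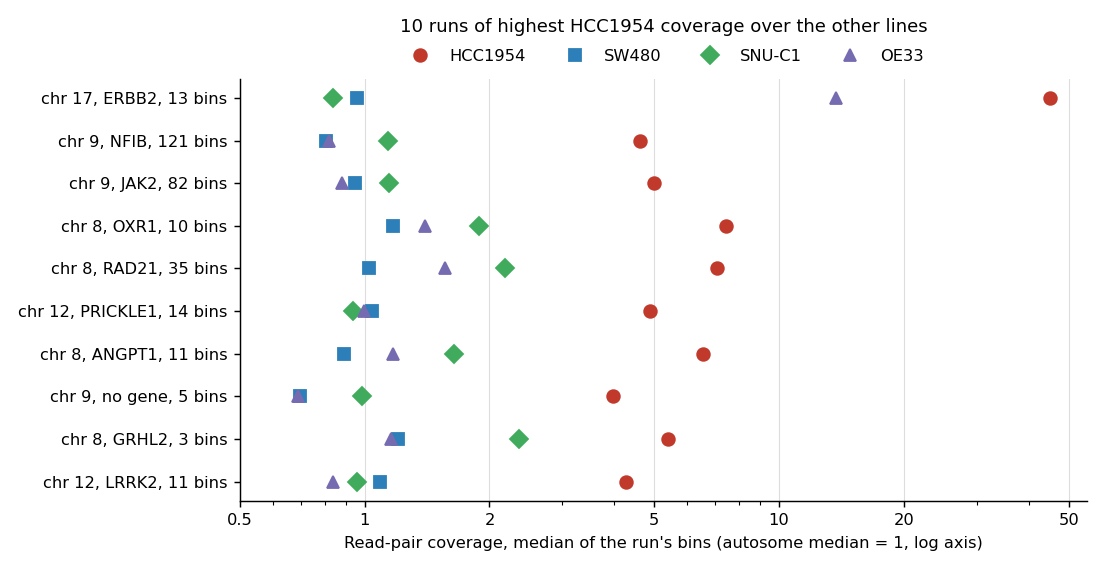
Median coverage (log axis, relative to the autosomal median of each map) of the 10 runs of bins with the highest maximum ratio in HCC1954, with 1 point per line. HCC1954 is highest in all 10 runs, and in the run with *ERBB2* it reaches 45.0, with OE33 next at 13.7.

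Chromosome 9 held the longest runs. A run of 121 bins at chr9:12480001-17640000 had a median coverage of 4.61 in HCC1954, 0.805 in SW480, 1.14 in SNU-C1 and 0.819 in OE33. It holds 14 genes, among them *NFIB*, a transcription factor of the nuclear factor I family, and *PSIP1*, a chromatin-binding coactivator. A run of 82 bins at chr9:3200001-6560000 had 5.00 in HCC1954, 0.946 in SW480, 1.15 in SNU-C1 and 0.884 in OE33. Its 25 genes include *JAK2*, a kinase of cytokine receptors, *CD274* and *PDCD1LG2*, which encode the immune checkpoint ligands PD-L1 and PD-L2, and *IL33*, a cytokine. Coverage at *JAK2* reached 4.88 times the others, and at *CD274* it was 5.42 times.

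Chromosome 8 had raised runs on its long arm over a background that was already high. The run at chr8:117400001-119440000 had a median coverage of 7.08 in HCC1954, 1.02 in SW480, 2.18 in SNU-C1 and 1.56 in OE33 over 35 bins. It holds *RAD21*, a subunit of cohesin, the ring complex that holds chromatin loops, *EIF3H*, a translation initiation factor, and *EXT1*, an enzyme of heparan sulfate synthesis. Coverage at *RAD21* was 6.42 in HCC1954, 4.36 times the median of the others. The run with *OXR1* and *ABRA*, chr8:107440001-107840000, had 7.43 in HCC1954 and at most 1.89 in the others. The next run along the arm, chr8:108080001-108520000 with *ANGPT1*, the gene of a ligand of the TIE2 receptor, had 6.54 in HCC1954 and at most 1.65 elsewhere. A run of 3 bins at chr8:102440001-102640000 covered the start of *GRHL2*, a transcription factor of epithelial cells, with 5.38 in HCC1954 and 2.36 in SNU-C1. Of the 10 runs with the highest maximum ratio to the other lines, the remaining 3 lie on chromosome 9 at chr9:1160001-1360000, which holds no protein-coding gene, and on chromosome 12. Those of chromosome 12 were chr12:42960001-43760000, at 4.88, and chr12:40680001-41320000 with *LRRK2*, at 4.27, while every other line had at most 1.09 in either.

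Contacts specific to HCC1954 were sought among pairs of 200-kb blocks at least 2 Mb apart. The measure was the observed over expected contact (O/E), in which the expected value is the mean at the same distance over all autosomes of the same map. A block pair counted where O/E was at least 4, at least 4 times the highest other line with 0.5 added to both, and the pair held at least 10 read pairs. In HCC1954 this held for 1911 of 4344407 block pairs (0.044%). In SNU-C1 it held for 1798 (0.0414%), in OE33 for 771 (0.0177%) and in SW480 for 472 (0.0109%). The pairs of HCC1954 had a median distance of 33 Mb, a median O/E of 9.89 and a median of 57 read pairs, and 70.5% of them were at least 20 Mb apart. Without correction 4832 block pairs passed.

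These contacts were concentrated on a few chromosomes. Chromosomes 21, 5, 8, 4 and 6 held 1481 of them (77.5%), and with 17, 11 and 10 the number was 1809 (94.7%). Each of 13 chromosomes had fewer than 20. Chromosome 21 had the most, 472 of 11343 tested pairs (4.16%), and no other line had any there. They reached 134 of the 160 usable blocks of chromosome 21 (83.8%), with a median distance of 19.4 Mb and a highest O/E of 44.6. Chromosome 8, with 322 pairs, showed them in 165 of 641 blocks (25.7%), with a median distance of 23.8 Mb and the highest median number of read pairs among these 8 chromosomes, 189. The 368 pairs of chromosome 5 lay in only 82 of 839 blocks (9.77%). All of them were at least 20 Mb apart, with a median distance of 113 Mb and a median O/E of 18.5. Chromosome 4 had 189 such pairs in 102 of 894 blocks, while OE33 had 223 pairs of its own on that chromosome.

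**Figure D3:**
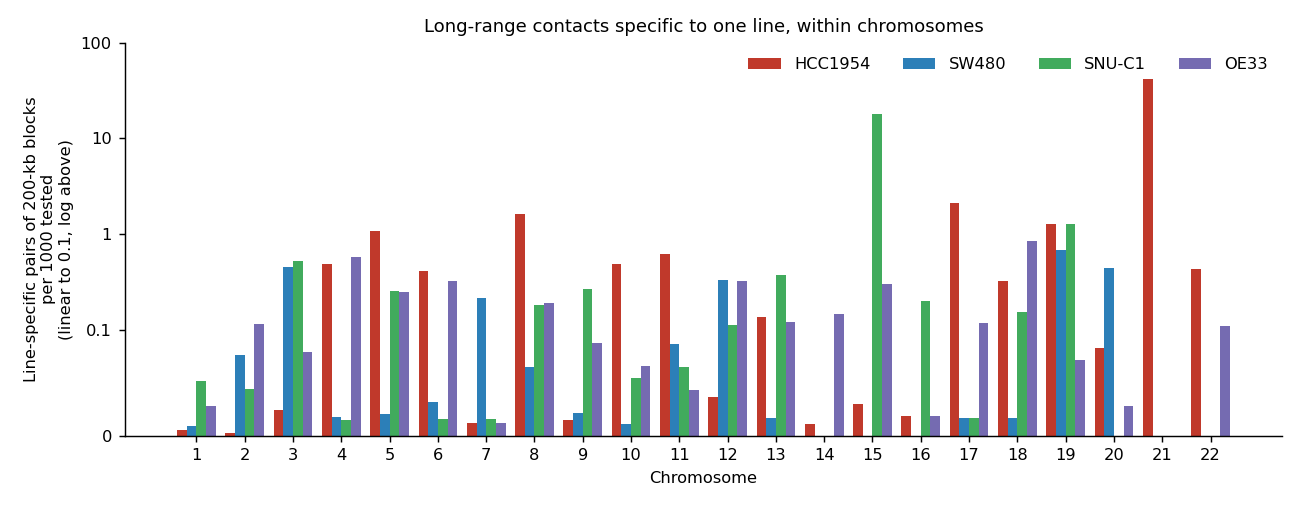
Line-specific pairs of 200-kb blocks at least 2 Mb apart per 1000 tested, by chromosome, with 1 bar per line on an axis that is linear from 0 to 0.1 and logarithmic above. Chromosome 21 of HCC1954 has the highest bar, from 472 of 11343 tested, where the other lines have none.

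The block pair with the highest O/E joined opposite ends of chromosome 5. Its blocks start at 1.2 and 180.4 Mb, and O/E was 222 from 577 read pairs in HCC1954, with 5.45 as the highest value elsewhere. On chromosome 8 the blocks at 72.2 and 106.4 Mb had an O/E of 158 from 1448 read pairs. The highest pairs of chromosomes 4 and 6 both had an O/E of 105, with 205 and 86 read pairs. On chromosome 11 the blocks at 65.4 and 98.8 Mb reached 94.2, and on chromosome 17 those at 37 and 78.8 Mb reached 94.1. On chromosome 21 the highest pair, at 16.8 and 45.8 Mb, had 44.6. The contacts of chromosome 21 thus reached most of its usable blocks, and those of chromosome 5 fewer blocks at higher O/E and longer distances. O/E is relative to an expected value that falls with distance, and the specific pairs of chromosome 21 spanned at most 31 Mb. Read pairs did not follow O/E, with a median of 66 on chromosome 21 and 42.5 on chromosome 5.

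Single points of contact were then located at 40 kb. A junction was called where the mean over 3 by 3 bins, at least 1 Mb apart, reached the autosome-wide mean of bins 400 kb apart in the same map and exceeded the other lines at least 4 times. Positions below are the starts of the middle bins, and read pairs are summed over the 3 by 3 bins. HCC1954 had 18 within chromosomes, SNU-C1 had 23, SW480 had 3 and OE33 had 1. The junctions of HCC1954 lay on 7 chromosomes, 6 of them on chromosome 8, 3 each on 11 and 21, 2 each on 4 and 17, and 1 each on 5 and 22. They spanned 1.2 to 68.04 Mb. With the mean at 1 Mb as the requirement HCC1954 had 112 and SNU-C1 118, and chromosome 21 then led with 33, followed by chromosome 8 with 28 and chromosome 4 with 12. Break-ends from sequencing were not used here, so a junction is a feature of the contact map.

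The junction with the highest contact joined bins that start at 127.88 and 130.52 Mb of chromosome 8, on either side of *MYC*. It held 3793 read pairs in HCC1954 (3673 to 3916), 178 in SW480, 145 in SNU-C1 and 99 in OE33. At *MYC* itself, the gene of a transcription factor of growth, coverage was 3.27 in HCC1954, 9.47 in SW480, 2.05 in SNU-C1 and 1.95 in OE33, so SW480 and not HCC1954 was highest there. A junction between 107.76 and 117.44 Mb of chromosome 8 had the most read pairs, 4738 (4604 to 4875), with 9, 11 and 9 in SW480, SNU-C1 and OE33. Its ends lie at 2 of the raised runs above, those with *ABRA* and with *RAD21*. A further bin pair of this arm, 72.16 and 106.52 Mb, joined the bins of *EYA1* and *ZFPM2*, both genes of developmental transcription regulators, with 868 read pairs (811 to 928) and at most 4 elsewhere. The bins at 108.40 and 132.28 Mb held 1436 in HCC1954 and at most 7 elsewhere.

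Outside chromosome 8 the counts were also far apart from those of the other lines. On chromosome 22, bins at 26.60 Mb in *SEZ6L* and 36.84 Mb at *TXN2*, the mitochondrial thioredoxin, held 386 read pairs (348 to 426) in HCC1954, 5 in SW480, 0 in SNU-C1 and 2 in OE33. On chromosome 4, bins at 157.84 and 170.56 Mb, with *PDGFC*, a growth factor gene, and *CLCN3*, a chloride channel gene, held 1303 (1233 to 1376) and at most 20 elsewhere. On chromosome 11, bins at 70.60 Mb in *SHANK2* and 94.16 Mb at *MRE11*, a DNA double-strand break repair gene, held 893 (835 to 954), with 1, 0 and 1 in the others. The longest junction, 108.76 to 176.80 Mb on chromosome 5, held 683 (633 to 736), with 2, 0 and 0 in the others. Those of chromosome 17 linked 37.28 with 70.48 Mb and 70.36 with 80.20 Mb, so that the stretch between 70.36 and 70.48 Mb was in contact with the flank of the *ERBB2* segment and with the end of the arm, with 323 and 471 read pairs in HCC1954 and at most 5 elsewhere. In all of these the HCC1954 interval lay above every other line, but the calling rule selected for such a gap, so this is no independent result.

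Among the 18 junctions, 1 did not rest on more read pairs than in the other lines. At 34.16 and 35.36 Mb of chromosome 8, HCC1954 had 39 read pairs (27.7 to 53.3), while SW480 had 73, SNU-C1 had 69 and OE33 had 55, and coverage at its first end was 0.383 times that of the others. Of the 56 ends of junctions within and between chromosomes, 55 had a coverage value. The coverage was at least 2 times that of the other lines at 25 of them (45.5%), and the same was found at 3.78% of all usable bins. Whether the raised coverage alone brings ends past the junction threshold was not tested.

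Between chromosomes HCC1954 had 21002828 read pairs, 19.0% of its autosomal total, with 14.4% in SNU-C1 and 35.9% in OE33. These shares mix true contacts and random ligation, whose parts were not tested. The expected value here was the mean over all pairs of usable bins on different chromosomes of the same map. It includes random ligation, whose part in the counts was not tested. With the other limits as before, 11039 of 3078816 pairs of 1-Mb blocks were specific to HCC1954 against the other 2 lines (0.359%). For SNU-C1 there were 4739 (0.154%) and for OE33 1631 (0.053%). Without correction the count of HCC1954 was 20480. HCC1954 had at least 1 in 117 of 231 chromosome pairs and at least 100 in 29, while SNU-C1 and OE33 each reached 100 in 5. The 10 chromosome pairs with the most held 49.9% of those of HCC1954.

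**Figure D4:**
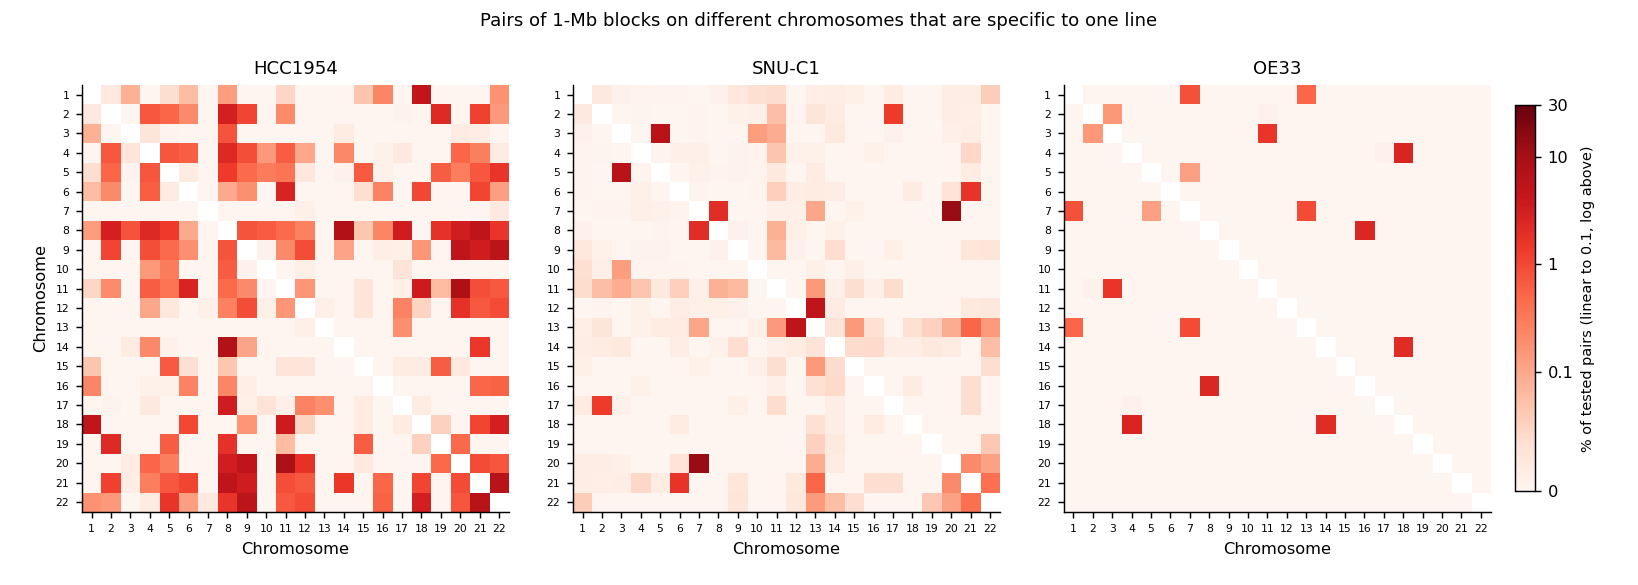
Line-specific pairs of 1-Mb blocks as a percentage of those tested, for each pair of autosomes in HCC1954, SNU-C1 and OE33 (rows and columns are chromosomes, the colour scale is linear to 0.1 and logarithmic above). HCC1954 has them in 117 chromosome pairs, with chromosome 8 coloured against all but chromosomes 7, 13 and 18, compared with 111 in SNU-C1, mostly pale, and 11 in OE33.

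Chromosome 8 took part in the most contacts of this kind, 4185, and shared at least 100 with 11 other chromosomes. With chromosome 2 it had 913, of 30785 tested (2.97%), and with chromosome 14 it had 853 (7.48%). Chromosomes 1 and 18 shared 769 (4.90%), 11 and 20 shared 614 (8.40%) and 6 and 11 shared 540. Chromosomes 7 and 13 took part in only 3 and 11. The mean O/E over whole chromosome pairs was above both other lines for those with the most block pairs, but not for every pair with many. Chromosomes 8 and 14 had a mean of 2.03 in HCC1954, with 1.07 for SNU-C1 and 0.952 for OE33. Chromosomes 1 and 18 had 1.40 in HCC1954, with 0.818 for SNU-C1 and 0.672 for OE33. Chromosomes 9 and 20 had 2.86 in HCC1954 and 1.63 and 1.36 in the others. Chromosomes 2 and 5, with 207 specific block pairs, had a mean of 0.854 in HCC1954, below the 0.909 of OE33. In 15 chromosome pairs the mean of HCC1954 was at least 1.5 times that of both other lines. Over the 231 chromosome pairs the Spearman correlation of mean O/E was 0.570 with SNU-C1 and 0.551 with OE33. It was 0.617 between SNU-C1 and OE33. Chromosome size is common to the lines, while coverage of arms differed between them, and the part of either was not tested.

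At 40 kb, 10 junctions between chromosomes reached the mean at 400 kb in HCC1954, with 3 in SNU-C1 and 1 in OE33. In each of the 10, SNU-C1 had 0 read pairs and OE33 at most 1, while HCC1954 had between 309 and 1858. The highest contact was between 1.36 Mb of chromosome 9 and 20.72 Mb of chromosome 22 at *ZNF74*, with 714 read pairs (663 to 768). Chromosome 12 was joined to chromosome 20 at 45.56 and 60.08 Mb, in *CDH4*, a cadherin gene, with 1858 (1774 to 1944), and at 40.40 Mb in *SLC2A13* and 53.96 Mb, with 1298 (1228 to 1371). The end at 1.36 Mb of chromosome 9 adjoins a raised run there, and that at 40.40 Mb of chromosome 12 lies close to the run with *LRRK2*. Chromosomes 4 and 5 were joined at 158.16 and 63.08 Mb, the former in *GRIA2*, a glutamate receptor gene, with 614 read pairs, and at 150.76 and 109.32 Mb with 404.

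Chromosomes 8, 11 and 5 were linked as well. Bins at 130.52 Mb of chromosome 8 and 68.88 Mb of chromosome 11, at *TPCN2*, held 1243 read pairs (1175 to 1314). The bin at 130.52 Mb is also the middle bin of an end of the junction around *MYC*. The same stretch of 3 bins was thus in contact with 2 distant places. Chromosome 5 met chromosome 8 at 180.60 Mb, at *TRIM7*, and 111.92 Mb with 1765 read pairs, and at 3.16 and 119.76 Mb with 953. With the mean at 1 Mb as the requirement, HCC1954 had 78 junctions between chromosomes, SNU-C1 had 9 and OE33 had 6. They fell in 37 chromosome pairs, 18 of them between chromosomes 5 and 8, 6 between 4 and 5 and 5 between 4 and 8. Among those of chromosomes 5 and 8, bins at 1.24 Mb with *TERT*, the gene of the telomerase catalytic subunit, and 129.12 Mb held 998 read pairs in HCC1954, with 0 in SNU-C1 and 1 in OE33. Coverage at *TERT* was 1.97 in HCC1954, 2.65 times the median of the other lines.

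TAD boundaries were taken as minima of the insulation score, the log2 contact across a bin within a window of 1 Mb relative to the distance expectation and the chromosome mean, which is low where few contacts cross. HCC1954 had 2530, of which 190 (7.51%) had no counterpart within 2 bins in any other line. By the same rule 5.12% of the boundaries were found only in SW480, 8.38% only in SNU-C1 and 8.12% only in OE33. Of 1671 boundaries common to the other 3 lines, 146 (8.74%) were absent in HCC1954, against 15.8% for OE33 and 6.50% for SNU-C1. HCC1954 thus lay within the range of the other lines in both directions. Shared boundaries with SW480 made up 80.0% of those of HCC1954 and 80.9% of those of SW480, while 96.2% and 96.9% were shared between the SW480 replicates. Boundaries found only in HCC1954 were weak, with a median strength of 0.344 against 0.688 for its others.

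The insulation score of single bins differed more from line to line than between libraries. Over 59298 bins the SD of the difference between HCC1954 and the median of the others was 0.194, and between the SW480 replicates it was 0.0307. At 475 bins (0.801%) HCC1954 lay at least 0.5 below every other line, and at 27 (0.0455%) at least 0.5 above. The SW480 replicates differed by that much at 0 bins. The counts of lower bins in SW480, SNU-C1 and OE33 were 78, 81 and 746. Those of HCC1954 lay mainly on chromosomes 8 (160), 11 (73), 12 (67) and 5 (53).

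Most bins of lower score were close to junctions. Of the 475, 396 (83.4%) lay within 0.4 Mb of an end of the junctions found with the mean at 1 Mb, and 7.28% of all scored bins did. The median coverage of the 475 bins was 1.98 times that of the other lines. Junctions and scores come from the same corrected map, in which every bin is scaled to the same total, so they are not independent. The parts of coverage and of the correction in the scores were not tested. The longest stretch, chr5:2240001-3440000 around *IRX2*, a homeobox gene, had a mean score of -0.49 in HCC1954, 0.46 in SW480, 0.35 in SNU-C1 and 0.50 in OE33. The stretch chr11:68760001-69720000 holds *CCND1*, the cyclin D1 gene, with *FGF19*, *FGF4* and *FGF3*, and scored -0.75 in HCC1954, 0.14 in SW480, 0.34 in SNU-C1 and 0.13 in OE33. Coverage at *CCND1* was 2.51 in HCC1954, 1.90 times the others. The stretch chr8:117320001-118120000 with *RAD21* scored -0.97 in HCC1954 and -0.14, -0.16 and -0.14 in the others. Among boundaries found only in HCC1954, the bin at 40.40 Mb of chromosome 12 in *SLC2A13*, an end of the junction with chromosome 20, scored -1.34 in HCC1954, -0.05 in SW480, 0.23 in SNU-C1 and 0.24 in OE33. Others differed little in score. The bin at 142.04 Mb of chromosome 4 had -0.51 in HCC1954, -0.54 in SW480, -0.46 in SNU-C1 and -0.28 in OE33. Of the 190, however, only 28 (14.7%) lay within 0.4 Mb of a junction end, against 6.67% of the other boundaries of HCC1954.

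Compartments were scored on 200-kb blocks by the first eigenvector of the O/E correlation of each arm, signed by gene density and set to an SD of 1, so that A is above 0. Of 12510 blocks on 39 arms, 424 (3.39%) were in A in HCC1954 and in B in all other lines, and 217 (1.73%) the reverse, with at least 0.5 between HCC1954 and the nearest line. Read pairs without correction gave 1627 and 26, so both counts depend strongly on the correction. On 8 arms (8p, 9p, 10p, 13q, 19p, 19q, 20p and 21q) another eigenvector followed gene density more closely in at least 1 line. In HCC1954 on 9p the rank correlation with gene density was 0.092 for the first and 0.764 for the second eigenvector. These arms, which include 9p and 21q, are left out of the account of blocks, runs and strength below, while the shares of listed genes in A further on include them.

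On the other 31 arms, 344 of 11096 blocks (3.1%) were in A in HCC1954 alone and 130 (1.17%) in B in HCC1954 alone. The same counts were 312 and 99 in SW480, 124 and 262 in SNU-C1, and 59 and 103 in OE33. Of all blocks on these arms, 50.4% were in A in HCC1954, 50.3% in SW480, 44.6% in SNU-C1 and 46.4% in OE33. The part of these shares in the direction of the counts was not tested. Over these blocks the scores of HCC1954 correlated with those of SW480 at 0.803, of SNU-C1 at 0.786 and of OE33 at 0.859, as a description of maps that share the genome's gene density. The compartment was the same as in OE33 at 87.4% of blocks, and as in SW480 and SNU-C1 at 82.9% and 82.8%. The SW480 replicates correlated at 0.994. The blocks in A in HCC1954 alone were gene-poor, with 0.757 genes per block against 1.33 over all blocks and 0.556 in blocks that were B in all lines. Those in B in HCC1954 alone held 1.94 genes per block, with 2.35 in blocks that were A in all lines. The score is signed by gene density and both sets are defined by the other lines. These densities therefore follow in part from the rule. The median coverage ratio to the other lines was 1.36 for blocks in A in HCC1954 alone, 0.838 for blocks in B alone and 1.01 over all blocks, and its part in the scores was not tested. Within 1 Mb of a junction end lay 15.4% of the former, 16.9% of the latter and 11.7% of all blocks.

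**Figure D5:**
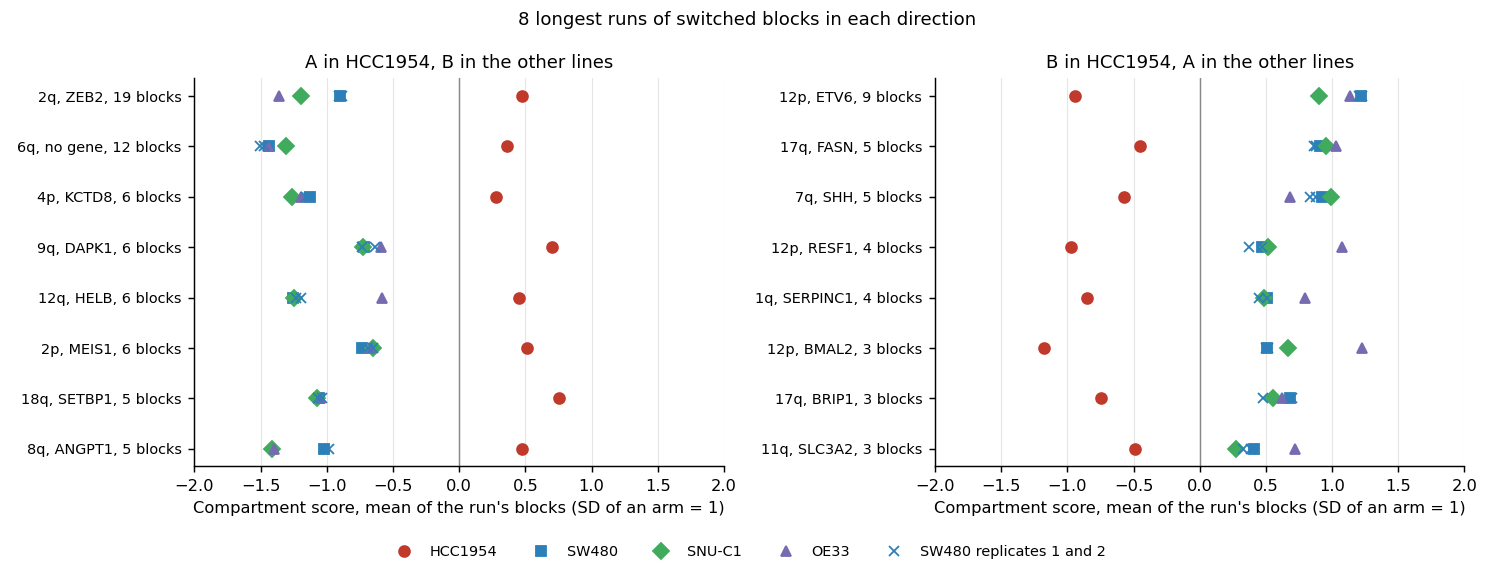
Mean compartment score (SD of an arm set to 1, above 0 is A) of the 8 longest runs of blocks in A (left) and in B (right) in HCC1954 alone, with 1 symbol per line and crosses for the SW480 replicates. In the run with *ZEB2* on 2q, HCC1954 is at 0.47 and the other lines between -1.36 and -0.90, and in the run with *ETV6* on 12p it is at -0.94 with the others between 0.90 and 1.22.

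The blocks in A in HCC1954 alone formed 175 runs, 36 of them of at least 3 blocks. The longest, 19 blocks at chr2:143800001-147600000, holds *ZEB2*, a transcriptional repressor of epithelial genes, *ARHGAP15* and *GTDC1*. Its mean score was 0.47 in HCC1954, -0.90 in SW480, -1.19 in SNU-C1 and -1.36 in OE33, and coverage was 1.35 times that of the other lines. The next, 12 blocks at chr6:102600001-105000000, held no protein-coding gene and scored 0.36 in HCC1954, -1.44 in SW480, -1.31 in SNU-C1 and -1.44 in OE33. Shorter runs of 5 or 6 blocks held *MEIS1*, a homeobox gene (2p, 0.51 in HCC1954 and -0.73 to -0.65 in the others), *DAPK1*, a death-associated kinase gene (9q, 0.70 and -0.73 to -0.59), *SETBP1* (18q, 0.76 and -1.07 to -1.05), and *NCAM1*, a neural adhesion molecule gene (11q, 0.78 and -1.05 to -0.54). In the run with *ANGPT1* on 8q, coverage was 4.14 times the others and a junction lay inside it, and in those with *KCTD8* on 4p and *SETBP1* on 18q coverage was 2.36 and 2.42 times. The run with *NCAM1* had 0.992 times the coverage of the others, while the median over all blocks in A in HCC1954 alone was 1.36 times. The part of coverage in these runs was not tested.

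The blocks in B in HCC1954 alone formed 82 runs, 10 of at least 3 blocks. The longest, 9 blocks at chr12:11800001-13600000, held 18 genes, among them *ETV6*, a transcriptional repressor gene, *LRP6*, a WNT coreceptor gene, and *CDKN1B*, which encodes the cell cycle inhibitor p27. Its mean score was -0.94 in HCC1954, 1.22 in SW480, 0.90 in SNU-C1 and 1.13 in OE33, and coverage was 0.555 times that of the others. At *CDKN1B* the score was -0.30 in HCC1954, 1.29 in SW480, 1.11 in SNU-C1 and 1.38 in OE33. Arm 12p held 25 of the 130 blocks in B in HCC1954 alone, while it has 156 of the 11096 blocks. The scores of HCC1954 on this arm correlated with those of OE33 at 0.596, against 0.859 over the 31 arms. Whether the run or the scoring of the whole arm differs was not tested. Another run, chr17:80000001-81000000 with *FASN*, the fatty acid synthase gene, among 22 genes, scored -0.45 in HCC1954, 0.91 in SW480, 0.96 in SNU-C1 and 1.03 in OE33, and the junction end at 80.20 Mb lies in it. A run of 5 blocks on 7q with *SHH*, a secreted developmental signal, scored -0.57 in HCC1954, 0.92 in SW480, 0.99 in SNU-C1 and 0.69 in OE33. Runs of 3 blocks held *BRIP1*, a helicase gene of DNA repair (17q), *IRF4*, a lymphoid transcription factor gene (6p), and *FLT4*, a receptor gene of lymphatic vessel growth (5q). Coverage of the runs with *FASN*, *BRIP1* and *FLT4* was 1.25, 1.48 and 1.78 times that of the others. The median over all blocks in B in HCC1954 alone was 0.838 times, and the part of coverage was not tested.

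Compartment strength, the O/E among like blocks over that among unlike blocks, taken from the highest and lowest 20% of scores, was lowest in HCC1954. The median over the 31 arms was 3.62 in HCC1954, 4.49 in SNU-C1, 4.74 in SW480 and 7.43 in OE33, and 4.82 and 4.77 in the SW480 replicates. HCC1954 was lowest on 24 of 31 arms, while OE33 was highest on all 31. With every map thinned to 87123995 read pairs the value of HCC1954 was 3.64.

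Genes of lists, chosen with earlier results of these data known, were read by compartment and coverage, since Hi-C measures no expression. Of all genes on the 31 arms, 212 (1.42%) lay in blocks in A in HCC1954 alone and 237 (1.59%) in blocks in B alone. Over all arms, coverage was at least 2 times the other lines at 376 of 18172 genes (2.07%) and at most 0.67 times at 2912 (16%). Over all 39 arms, 74.9% of 17521 scored genes were in A in HCC1954, 78.6% in SW480, 72.9% in SNU-C1 and 74.9% in OE33. Of 13 scored luminal mammary markers, 10 of them on the 31 arms, 11 (84.6%) were in A in HCC1954 and 9 (69.2%) in each other line. 1 of them, *FOXA1*, a pioneer transcription factor of luminal cells, was in A in HCC1954 alone, at 0.48, with -0.80 in SW480, -0.93 in SNU-C1 and -0.29 in OE33, and its coverage was 2.23 times the others. All 16 basal mammary and squamous markers were in A in HCC1954, and 16, 15 and 16 in SW480, SNU-C1 and OE33, so this list did not set the lines apart. Of 13 scored intestinal markers, 11 of them on the 31 arms, 8 (61.5%) were in A in HCC1954, 10 (76.9%) in SW480, 10 in SNU-C1 and 9 (69.2%) in OE33. *GPA33*, an intestinal surface antigen gene, was in B in HCC1954 alone, at -0.35 with 0.83, 0.71 and 0.18 in the others. Of 7 scored foregut markers, only 4 of them on the 31 arms, 5 (71.4%) were in A in HCC1954, near the share of all genes, with 6, 4 and 6 in the others. The counts of the lists thus differ by few genes between the lines, and compartments alone do not settle the labelled origin.

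Of 55 scored genes of breast cancer amplicons, 12 had at least 2 times the coverage of the other lines, beside 2.07% of all genes. The list was chosen with earlier results known and holds neighbours of 1 segment, so this is no measure of enrichment. The 12 were *ERBB2* and its neighbours *STARD3*, *TCAP*, *PNMT*, *PGAP3*, *MIEN1*, *GRB7* and *IKZF3*, which lie in 1 segment, and *TERT*, *SKP2*, *RICTOR* and *RAD21*. *SKP2*, a subunit of a ubiquitin ligase, had 2.13 times and *RICTOR*, a subunit of mTOR complex 2, had 2.05 times, both on chromosome 5. Coverage was at most 0.67 times at 4 of the 55, beside 16% of all genes, namely *CDK6*, *ZNF703*, *NSD3* and *FGFR1*, the last 3 being neighbours on 8p, and *FGFR1*, a fibroblast growth factor receptor gene, had 0.430 times. None of the list switched compartment in HCC1954 alone. *EGFR*, the gene of the epidermal growth factor receptor, had 0.880 times the coverage of the others.

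Among 15 genes of the EGF receptor family and its ligands, *ERBB2* alone had at least 2 times the coverage of the other lines. The ligand genes *NRG1* and *NRG3* were at most at 0.67 times, which is 2 of 15 beside 16% of all genes. *ERBB4*, a receptor of neuregulins, was in A in HCC1954 alone, at 0.10 with -1.23 in SW480, -1.18 in SNU-C1 and -1.25 in OE33, and its coverage was 0.984 times the others. Of 25 scored tumour suppressors, coverage was at least 2 times at *APC*, a regulator of WNT signalling, and *PTPRD*, a receptor phosphatase gene, and at most 0.67 times at *CSMD1*, which is 2 and 1 of 25 beside 2.07% and 16% of all genes. *APC* had 2.43 in HCC1954 and between 0.365 (SNU-C1) and 1.46 (SW480) in the others. On the 31 arms none of them switched in HCC1954 alone.

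Among the 11 of 14 genes of the epithelial to mesenchymal transition that lie on the 31 arms, *ZEB2* was in A in HCC1954 alone, at 0.53 with -0.67 in SW480, -0.97 in SNU-C1 and -1.25 in OE33. *OVOL1*, a transcription factor gene of epithelial differentiation, was in B in HCC1954 alone, at -0.26 with 0.97, 0.98 and 1.04 in the others. *OVOL2* was scored in B in HCC1954 alone too, but it lies on 20p, 1 of the 8 arms left out, and is not counted as switched. Over the 14, coverage was at least 2 times the other lines at *GRHL2* (3.92 times) and at *ESRP1*, an epithelial splicing regulator gene (3.27 times), and at most 0.67 times at *ZEB1*, *OVOL2* and *SNAI1*, which is 2 and 3 of 14 beside 2.07% and 16% of all genes. The median was 0.942 over the 14 and 0.947 over all genes. *CDH1*, the E-cadherin gene, was in A in all lines, at 1.13 in HCC1954. Of 39 HOX genes, which lie in clusters, 33 (84.6%) were in A in HCC1954, 39 in SW480, 39 in SNU-C1 and 33 in OE33, beside 74.9% of all genes in HCC1954, and none had switched in HCC1954 alone.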

How the data were processed

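In situ Hi-C with MboI was made by the authors from cultured cells in duplicate. BWA-MEM with hg19 served for alignment and Picard for removal of PCR duplicates, and the matrices came from pipelines of the authors. The deposited signal is an iteratively corrected contact frequency for each pair of 40-kb bins. The maps of HCC1954, SNU-C1 and OE33 hold pairs between chromosomes, and that of SW480 almost none. Whether a map was corrected over the whole genome or within each chromosome is not stated. The SW480 map used pools replicates 1 and 2 and was not counted as independent of them.

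Bin factors of the correction were fitted to pairs at least 5 Mb apart, and their products gave whole read pairs within 0.02 for values up to 20.5. A bin was usable where no line had under 0.25 of its median coverage, and a 200-kb block was kept with 3 usable bins of 5. The expected value was the mean at each distance over the autosomes of the map, with smoothing over 10% of the distance from 5 Mb on. Of junctions within 2 Mb of each other the highest was kept, boundaries used a delta of 200 kb and a strength of 0.1, and runs of bins were joined over gaps of up to 200 kb. Coverage at a gene was the median of 5 bins around its start. Genes came from the GENCODE annotation lifted to GRCh37, in which 196 of 198 listed symbols were matched among 19222 protein-coding genes.

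With 1 map per line no test was made. The methods were tested on simulated data. Named genes were those of the lists that were called in HCC1954, up to 10 listed genes as controls, and genes in the 10 longest compartment runs in each direction, the 10 bin runs with the highest maximum ratio and the bins of the 10 strongest junctions. Stretches of lower insulation, the boundaries named and junctions beyond the 10 strongest were chosen with their values known. The lines compared, thresholds and gene lists were chosen with earlier results of these data known. Alternatives changed the block size, fold, minimum of read pairs, bin filter, correction, junction reference, matching of boundaries, compartment arms and depth, and left out each SW480 replicate. Compartment strength, the setting without the 8 arms and the choice of the best of 3 eigenvectors were added after the data were seen. Every column of values was used, and a further locus is not reported here. The software was Numba 0.67.0, PyArrow 21.0.0, pandas 2.3.3, Matplotlib 3.10.9, SciPy 1.17.1, NumPy 2.4.6 and Python 3.11.15.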

Additional observations from a re-analysis of the deposited data

How the results depend on the processing

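Several counts of HCC1954 depended on the rule. Bins of raised coverage fell from 335 to 155 when HCC1954 had to exceed the highest of the other lines 4 times instead of their median. The 1911 specific block pairs within chromosomes became 561 with 400-kb blocks, which are fewer to test, 3015 at 3 times, 10367 without the minimum of read pairs, 1242 when bins under 0.5 of the median coverage were left out and 4832 without correction. The 18 junctions within chromosomes became 112 with the mean at 1 Mb and 82 without correction. Between chromosomes, 11039 became 2723 with 2-Mb blocks, 18156 at 3 times and 20480 without correction. Boundaries found only in HCC1954 (190) numbered 317 when matched within 1 bin and 115 within 4 bins, and absent boundaries (146) numbered 97 within 4 bins. The 424 blocks in A in HCC1954 alone became 218 with 400-kb blocks, 667 over whole chromosomes, 247 with a difference of 1 and 1627 without correction. The 217 in B alone became 110, 116 and 26 with 400-kb blocks, a difference of 1 and no correction, and 130 without the 8 arms. The share of pairs at least 20 Mb apart was 9.23% from corrected values and 8.88% with the filter at 0.5. The cause of these changes was not tested except where fewer pairs or arms enter by construction. With 1 SW480 replicate in place of the pool, specific block pairs numbered 1873 to 1892, raised bins 332 to 336, blocks in A alone 419 to 426, blocks in B alone 211 to 217, boundaries found only in HCC1954 190, absent boundaries 144 to 146 and junctions 18, with 7 higher and 10 lower arms. With the best of 3 eigenvectors, blocks in A alone numbered 417 and in B alone 169. No paired analysis was possible because only SW480 has replicate numbers. The spread between HCC1954 libraries is unknown, and the maps differ in depth and may differ in correction. At large distances few read pairs stand behind a bin pair, so weak contacts there were not detectable at this depth.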
